A study of Mus musculus with 9 samples.

Results

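The genes described here are 30 genes of cholesterol synthesis and sterol handling, taken by symbol from a list of the pathway, out of 22701 genes measured in mouse liver. Of these, 29 were found under their current symbol, and Msmo1 was found by its identifier (ENSMUSG00000031604) under the older symbol Sc4mol. Each one had reads in every liver, and all 30 passed the filter on low values. The list does not hold every gene of the pathway. Cells build cholesterol from acetyl-CoA through mevalonate and squalene, and the liver is a main site of this synthesis. The enzyme genes are targets of the transcription factors SREBP1 and SREBP2, encoded by Srebf1 and Srebf2. These factors are held in the endoplasmic reticulum by the escort protein SCAP and the INSIG proteins when sterols are plentiful, and reach the nucleus when sterols are scarce. By role, 7 genes encode enzymes of the mevalonate arm, 11 the steps from squalene to cholesterol, 5 sense sterols and 7 move, store or export them.

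The livers came from 9 mice of 5 weeks, 1 RNA library each, whose background the labels give as C57BL/6 and 129svPas. Mutants of 3 genotypes were set beside 3 wild-type livers (WT), named controls in the titles. They were HP1a-/- (HP1a_KO, 2 livers), HP1a-/- with HP1b deleted in the liver (HP1ab_KO, 1 liver) and HP1a-/- with HP1g deleted in the liver (HP1ag_KO, 3 livers). All 6 mutant mice thus carried the HP1a deletion, which the label ties to no tissue, and no liver lacked HP1b or HP1g alone. HP1 proteins are chromatin proteins that bind methylated histone H3 tails, and the series title concerns their part in suppressing liver tumours. The Cre driver of the liver deletions, the sex of the mice and their litters were not given in the sources used here.

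Total reads per library lay between 26375545 and 36161177, but HP1a_KO replicate 1 was shallower at 16266423. Values below are normalised reads, obtained by dividing each library's counts by its size factor, with mean ± SD where a group had 2 or 3 livers. The deleted genes kept transcripts. Cbx5, which encodes HP1a, averaged 1235 in WT and 538, 663 and 743 in HP1a_KO, HP1ab_KO and HP1ag_KO. Cbx1 (HP1b) stood at 217 in HP1ab_KO against 917 in WT, and Cbx3 (HP1g) at 349.7 in HP1ag_KO against 605. Hepatocyte markers were high in every library, as the tissue label states. In whole-liver RNA, fewer cells of a type and less RNA per cell cannot be told apart. Nothing in the labels ties animals to litters, so p-values measure the spread between these livers.

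The 18 synthesis genes varied together from liver to liver, and livers of 1 genotype lay far apart. Their summed level was 44083, 54129 and 68899 normalised reads in WT replicates 1 to 3. It was 102253 and 60250.1 in the 2 HP1a_KO livers, 58131 in HP1ab_KO, and 52128, 83226 and 60294 in HP1ag_KO replicates 1 to 3. HP1a_KO replicate 1 held the highest value of 13 of the 18 genes and HP1ag_KO replicate 2 that of the other 5. The lowest value was in WT replicate 1 for 9 genes, in HP1ag_KO replicate 1 for 5, in HP1ab_KO for 3 and in HP1a_KO replicate 2 for 1. The sensing and handling genes showed no such order, with sums of 54490 to 57038 in WT, 56055 and 56351 in HP1a_KO, 56086 in HP1ab_KO and 50075 to 61930.0 in HP1ag_KO.

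**Figure D1:**
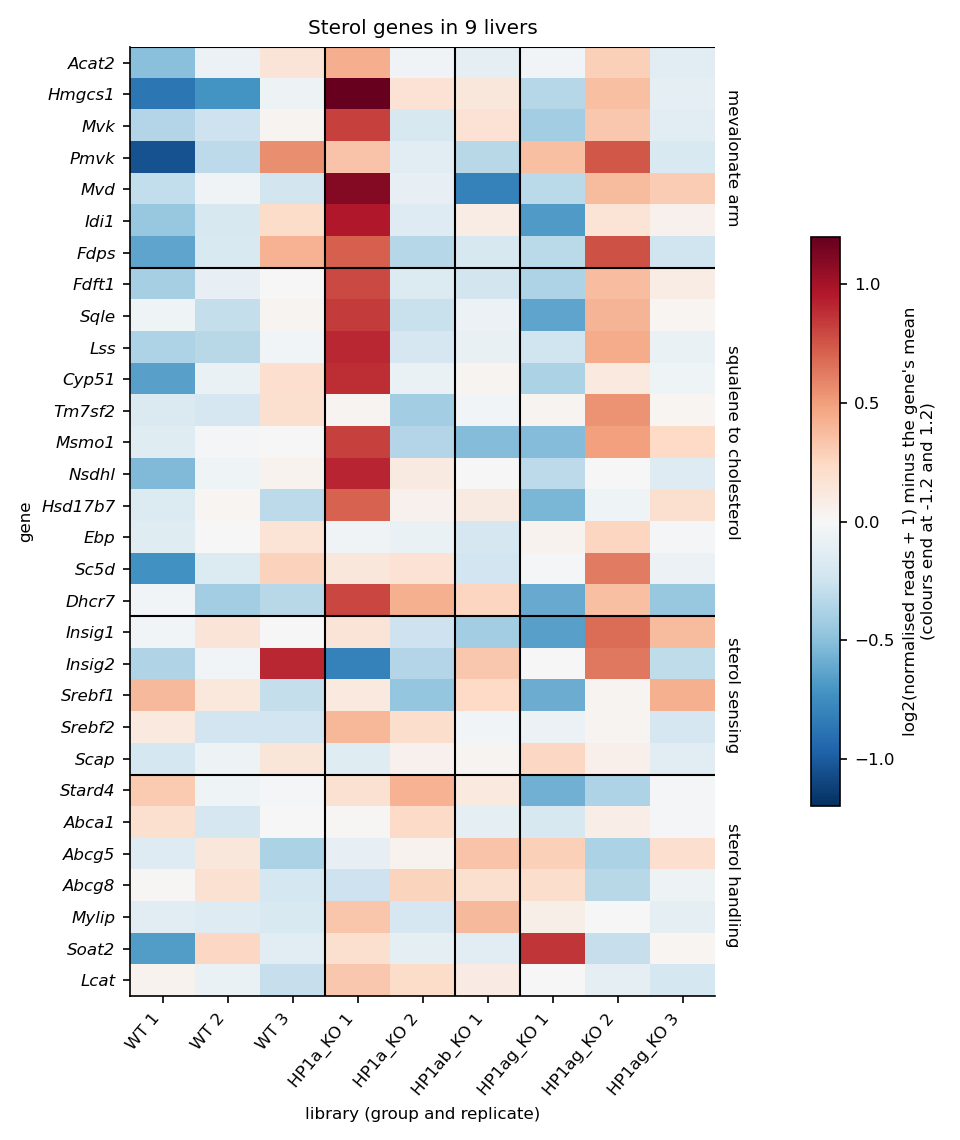
Level of each of the 30 genes (rows, by role) in each of the 9 livers (columns, by genotype), as log2(normalised reads + 1) minus the gene's mean over the livers; red is above and blue below that mean. The synthesis rows are mostly red in HP1a_KO replicate 1 and HP1ag_KO replicate 2 and mostly blue in WT replicate 1 and HP1ag_KO replicate 1. The lower rows follow no common pattern.

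This liver-to-liver spread was wide for the expression level. The SD of log2 values within genotypes (5 degrees of freedom, from the groups with 2 or 3 livers) had a median of 0.42 over the synthesis genes and 0.25 over the other 12. Over the 7357 genes with a mean at least as high as that of the lowest of the 30 genes, the median was 0.16. Fdps, the farnesyl diphosphate synthase, had an SD of 0.61, above that of 96.8% of those genes, and Hmgcs1 0.54, above 95.7%. Ebp, a sterol isomerase, was the exception among the synthesis genes at 0.13, above 38.8%. Lcat and Srebf2 varied little as well, at 0.12 and 0.16. A wide spread was not particular to the synthesis genes, as Insig2 (0.53), Soat2 (0.48), Insig1 (0.46) and Srebf1 (0.43) lay above their median.

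Because the synthesis genes moved together, the DNA just upstream of their starts was read from RefSeq promoter windows on GRCm38.p6, each covering the bases before and shortly after a start site. Windows were matched for 25 of the 30 genes, 15 of them synthesis genes. A pair of motifs was searched on both strands. One was TCACNCCAC, letters of the sterol regulatory element (SRE) that SREBP proteins bind. The other was CCAAT, the box bound by NF-Y, a factor that acts with SREBP at many sterol genes. CCAAT was found in 14 of 15 synthesis genes (93.3%), in 8 of 10 others (80.0%) and in 41.1% of all 27025 genes with a window of the same length. A gene counted if any of its windows matched. Per window CCAAT was found in 14 of 18 of synthesis genes (77.8%), 9 of 16 of the others (56.25%) and 37.4% of all 32851. The matches of Dhcr7 all lay in its window at chr7:143829964-143830263 and not in those of its other starts. TCACNCCAC was found in Hmgcs1 only among these 25 genes (4.0%, a share that rests on 1 gene), against 1.44% of all genes. A match is a description of letters and not a binding site, and these data hold no binding measurement. Only these exact letters were searched, so the lack of a match does not show that an SRE is absent. The stretches printed lie upstream of any annotated exon, run 5′ to 3′ on the gene's strand, and carry the matches in capitals (ATTGG is CCAAT on the other strand). Hmgcs1, Nsdhl and Hsd17b7 are shown as genes for which both HP1a_KO livers lay above every WT liver. Dhcr7, Srebf2 and Lcat met the same rule and are not shown. Mvk is shown because it held 5 CCAAT matches, and Abcg5 as a sterol exporter whose r with the synthesis genes was -0.45. The Abcg5 window does hold a CCAAT match (ATTGG, chr17:84683007-84683011), which adjoins the printed interval on the side of the gene.
Hmgcs1, chr13:119690101-119690350, plus strand, 1 SRE and 3 CCAAT matches: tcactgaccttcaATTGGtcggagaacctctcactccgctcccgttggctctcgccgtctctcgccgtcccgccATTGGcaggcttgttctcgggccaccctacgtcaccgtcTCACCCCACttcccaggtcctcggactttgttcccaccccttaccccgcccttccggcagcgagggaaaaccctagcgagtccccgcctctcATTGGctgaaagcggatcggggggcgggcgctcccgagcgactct
Nsdhl, chrX:72918412-72918520, plus strand, 2 CCAAT matches: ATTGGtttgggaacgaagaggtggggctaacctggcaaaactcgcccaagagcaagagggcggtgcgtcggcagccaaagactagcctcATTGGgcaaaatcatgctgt
Mvk, chr5:114444061-114444268, plus strand, 5 CCAAT matches: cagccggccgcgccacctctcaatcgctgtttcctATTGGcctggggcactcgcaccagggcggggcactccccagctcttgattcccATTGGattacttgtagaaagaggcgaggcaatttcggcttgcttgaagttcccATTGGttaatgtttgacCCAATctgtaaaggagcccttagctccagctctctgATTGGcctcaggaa
Hsd17b7, chr1:169969242-169969408, minus strand, 2 CCAAT matches: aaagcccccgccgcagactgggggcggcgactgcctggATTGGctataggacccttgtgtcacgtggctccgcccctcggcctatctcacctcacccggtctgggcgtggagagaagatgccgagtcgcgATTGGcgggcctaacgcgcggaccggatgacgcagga
Abcg5, chr17:84683012-84683120, minus strand, the interval before its start shared with the divergent gene Abcg8, 0 matches inside it: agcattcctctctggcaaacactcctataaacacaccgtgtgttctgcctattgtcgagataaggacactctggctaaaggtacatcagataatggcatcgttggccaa

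The mevalonate arm opens with Acat2, which joins acetyl-CoA units, and Hmgcs1, which makes HMG-CoA. Hmgcs1 (ENSMUSG00000093930, chromosome 13, 119690379 to 119708260, GRCm38) had 4259, 4732 and 7467 normalised reads in WT replicates 1 to 3 and 21125 and 8795 in the HP1a_KO livers. It stood at 8588 in HP1ab_KO and at 6141, 10029 and 7165 in HP1ag_KO replicates 1 to 3. Both HP1a_KO livers and the HP1ab_KO liver thus lay above all 3 WT livers, whereas the HP1ag_KO livers overlapped WT. Its highest liver held 4.96 times the reads of its lowest, the widest ratio among the 30 genes. Acat2 ranged from 1146 to 1803 in WT, with 2183 and 1570.0 in HP1a_KO, 1506 in HP1ab_KO and 1478 to 1979.6 in HP1ag_KO.

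Mvk, Pmvk and Mvd act in turn to make isopentenyl diphosphate from mevalonate. Mvk, the mevalonate kinase, had 434, 464 and 566 reads in WT, 976 and 483 in HP1a_KO, 622 in HP1ab_KO and 415, 691 and 502 in HP1ag_KO. Mvd, the decarboxylase, had 241 to 287 in WT, 638 and 277 in HP1a_KO, 169 in HP1ab_KO and 237, 386 and 365 in HP1ag_KO. For both genes HP1a_KO replicate 1 was the highest liver and the other HP1a_KO liver lay within the WT range. Pmvk, the kinase between them, spread most among WT livers, from 483 through 799.9 to 1464, so that its WT livers differed 3.03-fold. Idi1, the isomerase, ranged from 3895 to 6228 in WT and reached 10396 in HP1a_KO replicate 1 against 4812 in replicate 2. Fdps, which makes farnesyl diphosphate, ranged from 3599.5 to 7455 in WT and peaked in HP1ag_KO replicate 2 at 9463 and HP1a_KO replicate 1 at 9161. Exons of Fdps share 1124 bases with the gene model Gm43738 on the same strand and those of Hmgcs1 557 bases with the antisense model Gm48342, which were not analysed here.

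From squalene to cholesterol the first steps followed the same livers. Fdft1, the squalene synthase, had 2079, 2566 and 2742 reads in WT, 4754 and 2447 in HP1a_KO, 2350.1 in HP1ab_KO and 2118, 3543 and 2926 in HP1ag_KO. Sqle, the squalene epoxidase, had 1398 to 1742 in WT, 3047 and 1413 in HP1a_KO, 1624 in HP1ab_KO and 1098, 2266 and 1726 in HP1ag_KO. Lss, which closes the sterol rings, had 1222 to 1540.4 in WT, 2963 and 1373 in HP1a_KO, 1489 in HP1ab_KO and 1339.7, 2148 and 1490.4 in HP1ag_KO. In these 3 genes HP1a_KO replicate 1 was highest, HP1ag_KO replicate 2 came next, and both lay above every WT liver. Cyp51, the lanosterol demethylase, had 3437 to 6205 in WT and 9975 in HP1a_KO replicate 1, with the other mutant livers at 4155 to 5847, inside the WT range. Exons of Fdft1 share 774 bases with Ctsb on the opposite strand and those of Cyp51 166 bases with Akap9. The library kit marks strand, per the labels, but the strand setting of the counting is not given in the sources used here.

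The next enzymes, which reduce the sterol ring and strip methyl groups from it, did not act as 1 group. Nsdhl (ENSMUSG00000031349, chromosome X, 72918557 to 72958514), a sterol dehydrogenase, had 913, 1272 and 1362 reads in WT, 2489.7 and 1424 in HP1a_KO, 1326 in HP1ab_KO and 1061, 1317 and 1187 in HP1ag_KO. Hsd17b7 (ENSMUSG00000026675, chromosome 1, 169949535 to 169969241), a ketone reductase of the same process, had 1553, 1768 and 1399.9 in WT, 2851 and 1807 in HP1a_KO, 1883 in HP1ab_KO and 1194, 1678 and 1993 in HP1ag_KO. In both genes the lower HP1a_KO liver lay just above the highest WT liver, by 1424 against 1362 and 1807 against 1768. Msmo1, a methylsterol oxidase, had 3773 to 4168 in WT, and was split in HP1a_KO, with 7332 in replicate 1 and 3260.4, below every WT liver, in replicate 2. Tm7sf2, a sterol reductase, went another way, with 2323 to 3051 in WT, 2719 and 1995 in HP1a_KO and its peak of 3867 in HP1ag_KO replicate 2. Tm7sf2 exons share 532 bases with Vps51 on the same strand, so its reads are uncertain.

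The closing steps differed among themselves. Dhcr7 (ENSMUSG00000058454, chromosome 7, 143823145 to 143848410), the reductase of the last step, had 1039.7, 801 and 846 reads in WT, 1859 and 1436 in HP1a_KO and 1275 in HP1ab_KO. In HP1ag_KO it had 703, 1367 and 777. The HP1a_KO livers were above every WT and every HP1ag_KO liver, and the HP1ab_KO liver was above every WT liver. Ebp hardly varied, from 4466 to 5521 in WT, 4789 and 4658 in HP1a_KO, 4295 in HP1ab_KO and 4879 to 5889 in HP1ag_KO. Sc5d, a sterol desaturase, was lowest in WT replicate 1 at 7534 and highest in HP1ag_KO replicate 2 at 19233, with 13729 and 14105 in the HP1a_KO livers, between WT replicates 2 (11172) and 3 (15087).

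**Figure D2:**
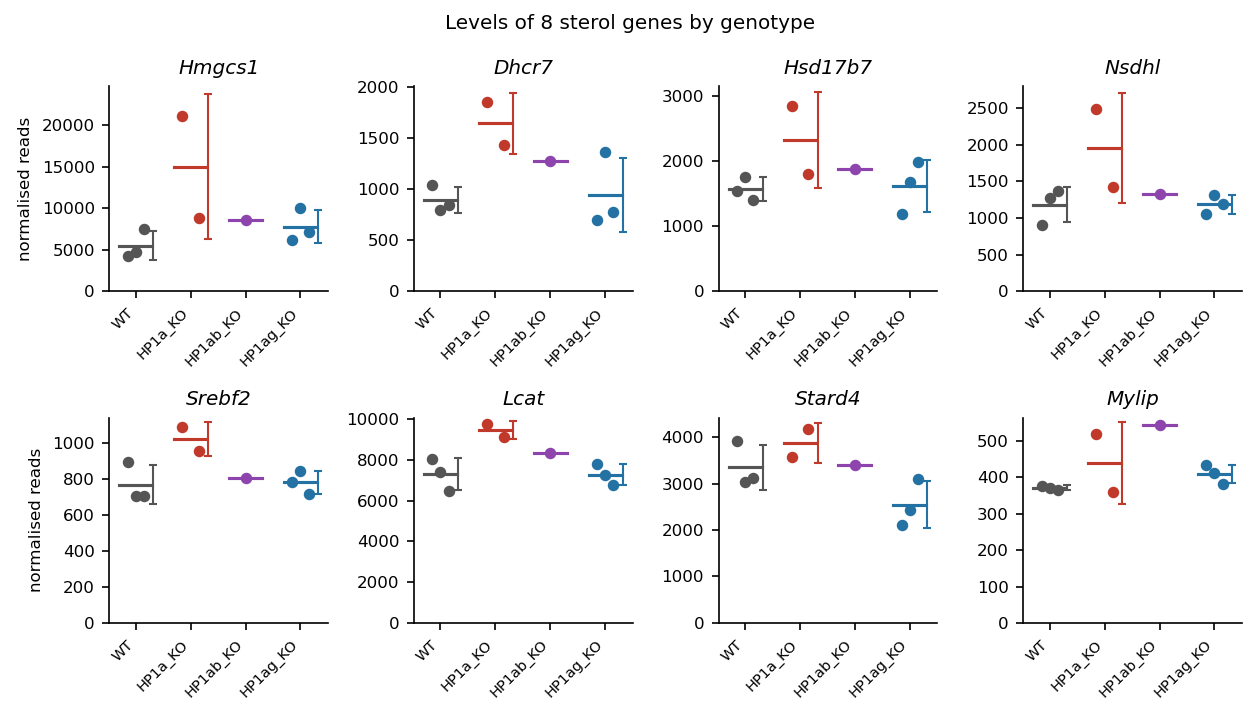
Normalised reads (linear axes from 0) of 8 genes named by the tests or by groups that did not overlap, with 1 point per liver, a line at the group mean and a bar of 1 SD for groups with 2 or 3 livers. Both HP1a_KO points lie above all WT points for Hmgcs1, Dhcr7, Hsd17b7, Nsdhl, Srebf2 and Lcat, and the HP1ag_KO points overlap WT in all panels except Mylip.

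Sterol sensing genes did not share 1 pattern. Srebf2 (ENSMUSG00000022463, chromosome 15, 82147181 to 82205379), whose product drives the synthesis genes, had 894, 706 and 706 reads in WT, 1092 and 957 in HP1a_KO, 805 in HP1ab_KO and 785, 845 and 718 in HP1ag_KO, so both HP1a_KO livers were above all others. Srebf1, whose product in liver acts mostly on fatty acid genes, had 4062 to 6502 in WT, 5390.4 and 3601 in HP1a_KO, 5857 in HP1ab_KO and 3281, 5068 and 6685 in HP1ag_KO. Scap varied little, with 4360.0 to 5580.1 in WT and 4568 to 5999.5 in the mutants.

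The INSIG genes, which encode the retention proteins, differed from each other. Insig1, itself an SREBP target, had 8671 to 9889 in WT, 9856 and 7498 in HP1a_KO, 6662 in HP1ab_KO and 5640.4, 14153 and 11550.3 in HP1ag_KO. It followed the low and high synthesis livers of HP1ag_KO but not HP1a_KO replicate 1. Insig2 had 4314, 5445 and 10402 in WT, 3169 and 4362 in HP1a_KO, 6932 in HP1ab_KO and 5557, 8608 and 4499 in HP1ag_KO. Its lowest value was thus in HP1a_KO replicate 1, the liver in which synthesis genes were highest.

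Among the handling genes, Lcat (ENSMUSG00000035237, chromosome 8, 105939551 to 105943382), which esterifies cholesterol on lipoproteins in plasma, had 8064, 7388 and 6480.0 reads in WT and 9775 and 9138 in HP1a_KO. It stood at 8359 in HP1ab_KO and at 7779, 7276 and 6760.2 in HP1ag_KO, so that HP1a_KO was above every other liver. Stard4, a cytosolic sterol carrier, had 3905, 3024 and 3112 in WT, 3572 and 4182 in HP1a_KO, 3409.6 in HP1ab_KO and 2099.8, 2432 and 3091 in HP1ag_KO. Replicates 1 and 2 of HP1ag_KO lay below every WT liver, and all 3 below both HP1a_KO livers. Mylip, a ubiquitin ligase that limits the uptake of lipoproteins, was tight in WT at 377, 371 and 364. It had 519 and 359 in HP1a_KO, 543 in HP1ab_KO and 433, 412 and 381 in HP1ag_KO, the last 3 all above WT by a small margin.

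For the remaining handling genes the HP1a_KO and HP1ag_KO livers overlapped WT. Abca1, which exports cholesterol to HDL particles, had 11036 to 14504 reads in WT and 11169 to 14898 in the mutants. Abcg5 and Abcg8 encode the partner subunits of the transporter that moves sterols into bile. Abcg5 had 1704 to 2429 in WT, 2062 and 2279 in HP1a_KO, 2807 in HP1ab_KO and 1707 to 2699 in HP1ag_KO, and Abcg8 had 2096 to 2752, 2040.2 and 2915, 2762, and 1920.1 to 2809. The HP1ab_KO liver lay above every WT liver for both, for Abcg8 by 2762 against 2752. Both were low in HP1ag_KO replicate 2 (1707 and 1920.1). Soat2, which stores cholesterol as esters, ranged from 631 to 1197 in WT and had its highest value, 1825, in HP1ag_KO replicate 1, a liver with low synthesis genes. Its lowest value, 631, was in WT replicate 1, where the summed level of the synthesis genes was lowest.

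Per kilobase of exon, the WT mean ran from 5448 normalised reads for Lcat to 107 for Srebf2. Insig1 (2952), Sc5d (2315), Ebp (2156) and Insig2 (1935.0) followed Lcat, and Mvd (140.1), Lss (124) and Mylip (115) stood just above Srebf2. The RNA of enzymes of 1 route thus differed widely in level: Idi1 reached 1407 per kilobase and Lss 124. Without division by length, WT livers held 3895 to 6228 reads of Idi1 and 1222 to 1540.4 of Lss. Exon lengths merge all annotated transcripts of a gene, which lowers the value of genes with long alternative exons. The merged length of Lss, 10787 bases, was the longest of the 30 genes.

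Comparing HP1a_KO with WT asks what loss of HP1a alone does. Of the 18 synthesis genes 16 had a higher mean log2 level in HP1a_KO, with a median difference of 0.49, and of the other 12 genes 8, with a median of 0.11. Over the 13845 genes tested 49.7% were higher and the median was -0.00. All 7 mevalonate genes and all 7 handling genes were on the higher side, with medians of 0.50 and 0.22, and 4 of 5 sensing genes on the lower side, with a median of -0.08. Limma called 0 of the 30 genes at an adjusted p under 0.05 and 0% of all genes, with 1404 genes (10.1%) at an unadjusted p under 0.05. At that unadjusted level 5 of the 30 genes were higher, where 5.48% of all genes were, and 0 were lower, where 4.66% were.

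Those 5 genes were Hmgcs1, Dhcr7, Nsdhl, Srebf2 and Lcat. Hmgcs1 averaged 14960.2 ± 8718 (n = 2) against 5486 ± 1732 (n = 3), a log2 difference of 1.36 ± 0.39 SE, and limma's adjusted p was 0.432. The Wald test of DESeq2 on recovered reads called Hmgcs1 alone among the 30 genes (adjusted p = 0.0269, with 0.643% of all genes called), and edgeR's quasi-likelihood test did not call it (adjusted p = 0.442). Dhcr7 stood at 1647 ± 299 against 895 ± 127, higher by 0.88 ± 0.28 SE, and Nsdhl at 1957 ± 754 against 1182 ± 238, by 0.69 ± 0.25 SE. Srebf2 stood at 1025 ± 94.9 against 769 ± 109, a difference of 0.42 ± 0.14 SE, and Lcat at 9457 ± 451 against 7311 ± 795, of 0.38 ± 0.12 SE. The limma adjusted p of these 4 genes lay between 0.450 and 0.457. Counting genes whose 2 groups did not overlap gives the same 5 and Hsd17b7, 6 of 30 higher where 14.7% of all genes were, and 0 lower where 15.1% were.

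The size of this difference rested on HP1a_KO replicate 1. Without it the synthesis median was 0.07 and without replicate 2 it was 0.95. Hmgcs1 was higher by 0.73 without replicate 1 and by 1.99 without replicate 2, in runs that leave 1 liver in the group. With both HP1a_KO livers, DESeq2 did not call it when WT replicate 2 was left out (adjusted p = 0.119). Nsdhl dropped to 0.29 without replicate 1, while Dhcr7 stayed between 0.69 and 1.06, Srebf2 between 0.33 and 0.53 and Lcat between 0.29 and 0.45 whichever liver was left out. HP1a_KO replicate 1 was also the shallowest library and stood highest in 18 of 19 acute phase genes, which the liver secretes in inflammation. Mean centred log2 values of that list were -0.56, -0.56 and -0.93 in WT, 2.01 and 0.70 in HP1a_KO, 0.66 in HP1ab_KO and 0.53, -0.87 and -0.98 in HP1ag_KO, so HP1ag_KO replicate 2 had high synthesis genes at a low acute phase level. Markers of the resident macrophages, Kupffer cells, summed to 13944 to 16571 in WT and 20685 and 24215 in HP1a_KO. Their sum was 23721 in HP1ab_KO and 15216 to 22146 in HP1ag_KO. Against WT, 11 of 11 of these genes were higher in HP1a_KO, 10 of 11 in HP1ab_KO and 11 of 11 in HP1ag_KO. Over all genes tested the shares higher were 49.7%, 49.4% and 47.9%. Stellate cell markers summed to 14171 to 19775 in WT and 21480.2 and 23129 in HP1a_KO. Their sum was 21097 in HP1ab_KO and 17996 to 19482 in HP1ag_KO. Of these genes 9 of 10 were higher than in WT in HP1a_KO, 8 of 10 in HP1ab_KO and 6 of 10 in HP1ag_KO. Neutrophil markers were few, at 32.9 to 50.5 reads in WT, 206 and 235 in HP1a_KO, 128 in HP1ab_KO and 25.8 to 142 in HP1ag_KO. Only 2 of the 8 neutrophil genes passed the filter, both with a higher mean log2 level than WT in every mutant group. Camp was at 0 in every WT liver. The part of depth, inflammation or cell makeup in the differences of HP1a_KO was not tested.

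Liver by liver, 14 of the 18 synthesis genes in HP1a_KO replicate 1 lay above the highest WT liver, where 27.5% of all genes did, and 0 below the lowest (29.1%). In HP1a_KO replicate 2 these counts were 4 above (24.2%) and 2 below (24.8%). The 4 genes were Dhcr7, Hmgcs1, Hsd17b7 and Nsdhl, and Msmo1 and Tm7sf2 were below. The 2 livers of this genotype therefore differed in how much of the pathway was high. The 4 genes above WT in replicate 2 are near the share of all genes, so they are not read as a trait of the genotype.

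**Figure D3:**
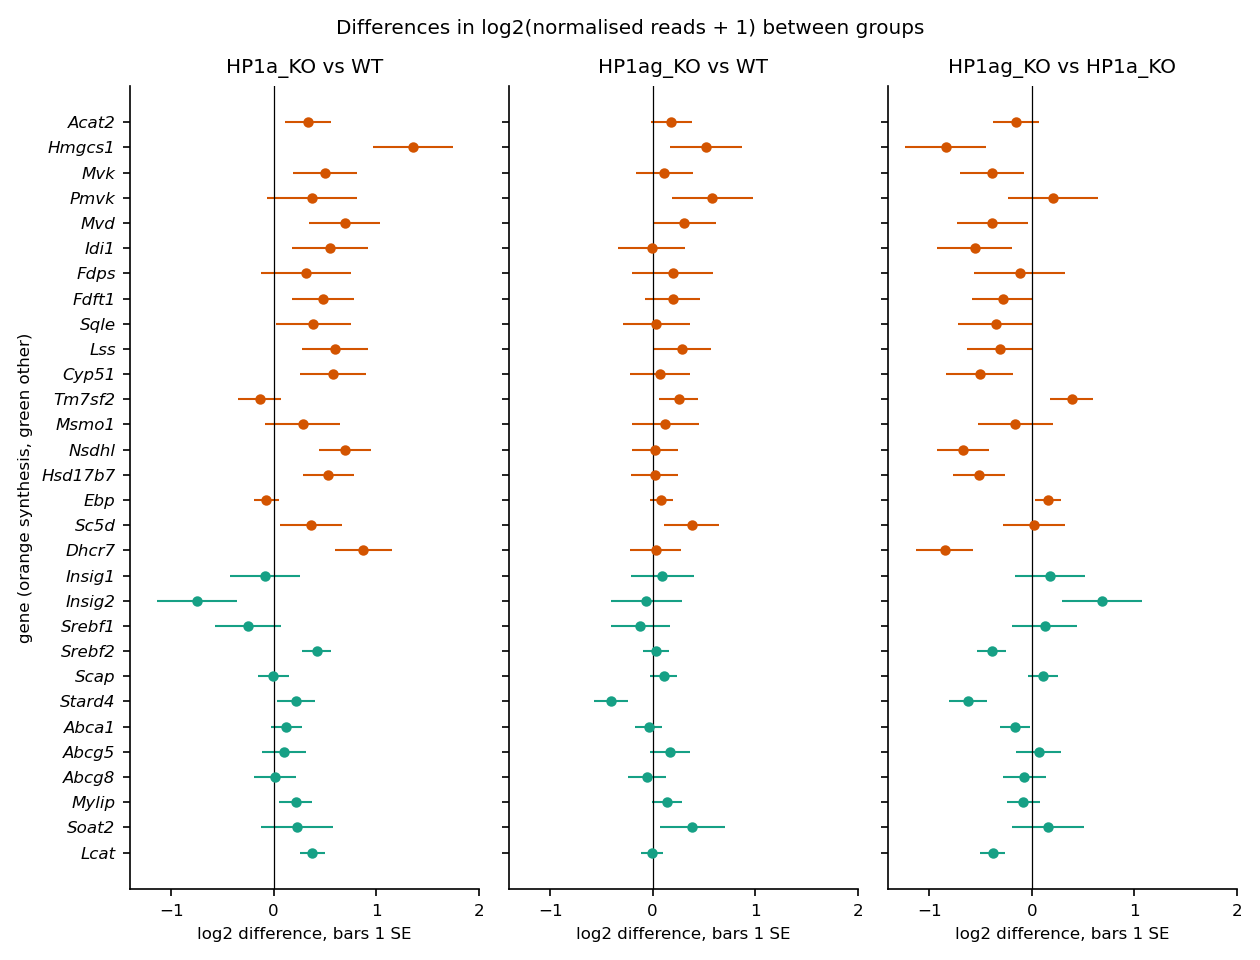
Difference in mean log2(normalised reads + 1) for each of the 30 genes (points, with bars of 1 SE from limma) in 3 comparisons, synthesis genes in orange and the other 12 in green. In HP1a_KO against WT 16 of 18 synthesis points lie right of 0, with Hmgcs1 at 1.36, in HP1ag_KO against WT most lie close to 0, and in HP1ag_KO against HP1a_KO 14 of 18 lie left of 0.

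Comparing HP1ag_KO with WT asks what loss of HP1a together with HP1g in the liver does. It uses the same WT livers as the comparison above. Of the synthesis genes 17 of 18 had a higher mean, but by a median of 0.15 only, and of the others 6 of 12, by 0.01, beside 47.9% of all genes and a median of -0.01. Limma called 0 of the 30 genes and 0% of all genes (1050, or 7.58%, at an unadjusted p under 0.05), edgeR called 0 and DESeq2 0 of the 30 with 0.715% of all genes. The synthesis median was -0.01 without HP1ag_KO replicate 2, 0.07 without WT replicate 1, 0.27 without WT replicate 3 and 0.33 without HP1ag_KO replicate 1. Stard4 was the one gene of the set at an unadjusted p under 0.05, 1 of 30 lower where 3.74% of all genes were, and 0 of 30 were higher where 3.84% were. It stood at 2541 ± 504 (n = 3) against 3347 ± 486 (n = 3), a log2 difference of -0.41 ± 0.16 SE (limma adjusted p = 0.634). Groups did not overlap for Mylip alone, at 409 ± 25.9 against 371 ± 6.44, 1 of 30 higher where 6.46% of all genes were and 0 lower where 7.05% were.

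The 3 HP1ag_KO livers lay on both sides of WT. In replicate 2, 14 of 18 synthesis genes were above the highest WT liver (25.8% of all genes) and 0 below the lowest (26.4%). In replicate 1, 0 were above (26.5%) and 7 below (30.1%), among them Idi1, Sqle, Mvk and Dhcr7. In replicate 3, 4 were above (21.7%) and 1, Dhcr7, below (25.3%). HP1ag_KO replicate 2 also had the highest mean over 14 genes of fatty acid synthesis, a pathway under SREBP1. It held the highest value of 6 of these genes and the lowest of 1. Mean centred log2 values of that list were -0.14, 0.06 and -0.11 in WT, -0.06 and -0.08 in HP1a_KO, -0.10 in HP1ab_KO and -0.18, 0.35 and 0.26 in HP1ag_KO. HP1a_KO replicate 1, with the highest synthesis genes, was thus not high in fatty acid genes.

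**Figure D4:**
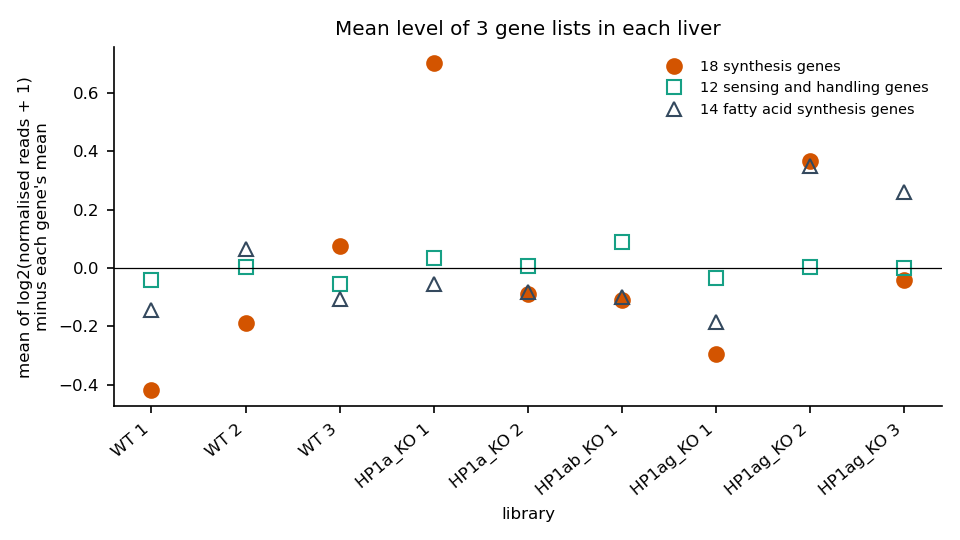
Mean over 3 gene lists of log2(normalised reads + 1), each gene centred on its mean, in each of the 9 livers. The mean of the 18 synthesis genes ranges from -0.42 in WT replicate 1 to 0.70 in HP1a_KO replicate 1. That of the 12 sensing and handling genes stays between -0.05 and 0.09. That of the 14 fatty acid synthesis genes is high in HP1ag_KO replicates 2 and 3.

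HP1ab_KO has 1 liver, so its differences have no replicate check and the fit takes it to vary like the other groups. Of the synthesis genes 11 of 18 were higher than the WT mean, with a median of 0.03, and of the others 10 of 12, with a median of 0.12, beside 49.4% of all genes and a median of -0.00. Leaving out WT replicate 1 put the synthesis median at -0.026, and leaving out WT replicate 3 put it at 0.21. Limma called 0 of the 30 genes and 0% of all genes (512, or 3.70%, at an unadjusted p under 0.05), edgeR 0, and DESeq2 0 of the 30 with 0.0795% of all genes. Mylip was the one gene of the set at an unadjusted p under 0.05, 1 of 30 higher where 2.05% of all genes were, and 0 of 30 were lower where 1.65% were. It stood at 543 against 371 ± 6.44, a log2 difference of 0.55 ± 0.20 SE (limma adjusted p = 0.999). Above all WT livers were 8 of the 30 genes, where 22.6% of all genes were: Hmgcs1, Mvk, Hsd17b7, Dhcr7, Abcg5, Abcg8, Mylip and Lcat. Below all of them were 4, where 24.8% were: Mvd, Msmo1, Ebp and Insig1.

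Taking the HP1a_KO and HP1ab_KO livers as 3 livers without HP1a that keep HP1g, all lay above every WT liver for Hmgcs1, Hsd17b7, Dhcr7 and Lcat. That is 4 of 30 genes, where 9.0% of all genes did so, and 0 lay below, where 9.41% did. Over all 6 mutant livers 0 of the 30 genes were separated from WT in either direction, beside 1.40% of all genes higher and 1.74% lower.

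HP1ag_KO against HP1a_KO asks what the loss of HP1g in the liver adds to that of HP1a, and uses no WT liver. It shares the HP1a_KO and HP1ag_KO livers with the comparisons above, so its values are not independent of theirs. The median synthesis gene was at -0.33 (14 of 18 lower), and 6 of the other 12 were lower, with a median of -0.00, where 48.0% of all genes were higher and the median was -0.02. Limma called 0 of the 30 genes and 0% of all genes (2240, or 16.2%, at an unadjusted p under 0.05), edgeR 0, and DESeq2 0 of the 30 with 3.32% of all genes. In all, 5 genes were lower at an unadjusted p under 0.05, beside 8.38% of all genes, and 0 were higher, beside 7.80%. They were Stard4 (-0.62 ± 0.18 SE), Dhcr7 (-0.85 ± 0.28 SE), Nsdhl (-0.67 ± 0.25 SE), Srebf2 (-0.39 ± 0.14 SE) and Lcat (-0.38 ± 0.12 SE), with limma adjusted p from 0.175 to 0.257. For these 5 genes every HP1ag_KO liver lay below both HP1a_KO livers, 5 of 30 where 19.2% of all genes did, and for Ebp and Insig2 every one lay above, 2 of 30 where 17.5% did. Without HP1a_KO replicate 1 the synthesis median was 0.15, on the other side of 0, and without HP1a_KO replicate 2 it was -0.86. Nsdhl stood at -0.27 without the first of these livers and at -1.07 without the second.

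How closely single genes followed the rest was described by Pearson's r of a gene's log2 values with the mean of the other synthesis genes over the 9 livers. These livers share genotypes and 1 size factor each, so r is given as a description with no p. Among the synthesis genes r ran from 0.37 for Ebp to 0.97 for Fdft1, with a median of 0.87 (Spearman's rho, median 0.75). Without HP1a_KO replicate 1 the median was 0.73. Without the 2 livers farthest from the median, HP1a_KO replicate 1 and HP1ag_KO replicate 2, it was 0.67. Over those 7 livers 10 of the 18 genes had an r above 0.5, against 16 over 9 livers. Cyp51 (0.94), Lss (0.85), Idi1 (0.84) and Fdft1 (0.83) followed the others most closely over the 7 livers. Sqle (0.38), Tm7sf2 (0.28), Msmo1 (0.24), Hsd17b7 (0.22), Mvd (0.10) and Dhcr7 (-0.08) were lowest. For Mvd and Dhcr7 the relation over 9 livers (0.77 and 0.62) thus rests on those 2 livers, as r was 0.47 and 0.30 without HP1a_KO replicate 1 alone. For Hsd17b7 (0.65) it rests on HP1a_KO replicate 1, without which r was 0.18.

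Sensing and handling genes had r from -0.73 for Abcg8 to 0.52 for Insig1, with a median of 0.04. Insig2 went from -0.07 over 9 livers to 0.67 without HP1a_KO replicate 1. Lcat (0.27) and Srebf2 (0.48) went to -0.40 and -0.11 without that liver. Among 10925 other protein-coding genes with a mean of at least 50, the 10 whose pattern was most like the mean of the 18 synthesis genes were Pter (r = 0.98), Pigf and Notch1 (0.94), Tecr (0.93), Ap2s1 (0.92), Tmco6 and Tmem160 (0.91), Rpn1 (0.90), and Slc25a1 and Mydgf (0.89). Pter ranged from 2023 to 2552 in WT, and reached 3552 in HP1a_KO replicate 1 and 3377 in HP1ag_KO replicate 2. These genes were the highest of many, and an r above 0.5 was found for 6.57% of the genes searched.

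**Figure D5:**
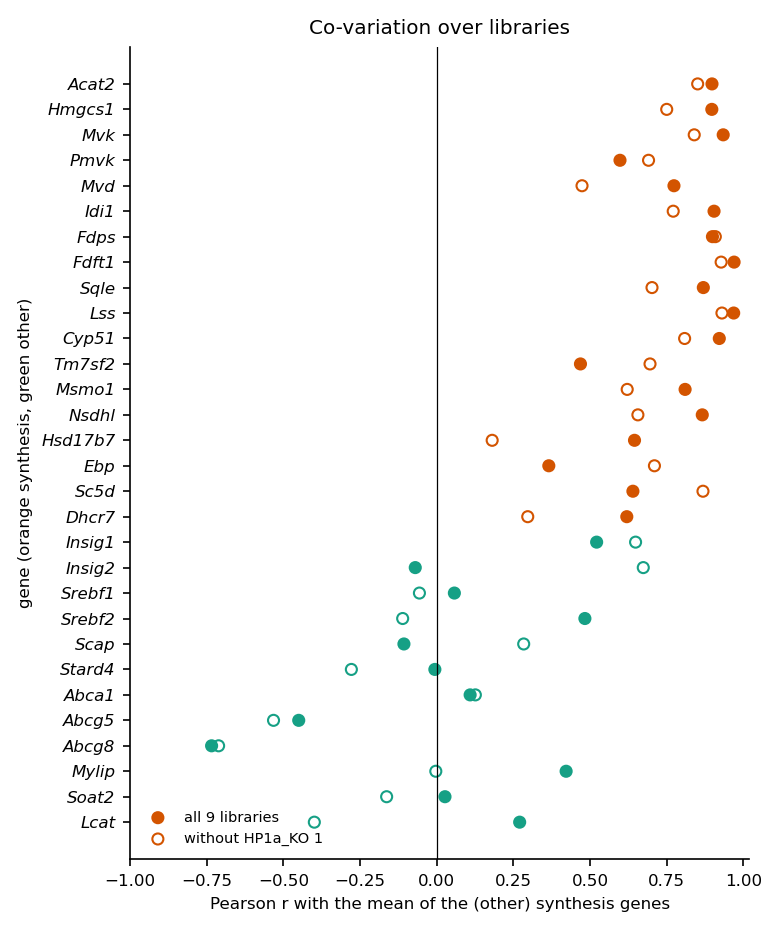
Pearson's r of each gene's log2 level with the mean of the (other) synthesis genes, over all 9 livers (filled) and without HP1a_KO replicate 1 (open); synthesis genes are orange and the other 12 green. Synthesis genes lie between 0.37 and 0.97 over 9 livers, and sensing and handling genes between -0.73 and 0.52.

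A wider list of 31 sterol genes outside the 30, among them the receptors Nr1h2 and Nr1h3 that sense oxysterols and the proteases Mbtps1 and Mbtps2 that release SREBP, was looked at in the same way. Npc1l1 and Ch25h did not pass the filter. Limma called 0 of the other 29 in any of the 4 comparisons. In HP1a_KO against WT 20 were higher and 9 lower, with a median of 0.12, beside 49.7% of all genes higher. At an unadjusted limma p under 0.05, 3 were higher, where 5.48% of all genes were, and 0 lower, where 4.66% were. In HP1ag_KO against WT 13 were higher and 16 lower, with a median of -0.05, beside 47.9% of all genes higher. At that level 1 was higher (3.84% of all genes) and 0 lower (3.74%). In HP1ag_KO against HP1a_KO 11 were higher and 18 lower, with a median of -0.15, beside 48.0% of all genes higher. At that level 1 was higher (7.80% of all genes) and 3 lower (8.38%). In the 1 HP1ab_KO liver against WT 17 were higher and 12 lower, with a median of 0.07, beside 49.4% of all genes higher.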

How the data were processed

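Total RNA of each liver was depleted of ribosomal RNA and made into strand-specific libraries, per the labels' protocols. Per the submitters' processing notes, the tools were HTSeq (version 0.5.4p3), TopHat2 (2.0.10), Bowtie2 (2.1.0), DESeq2 (1.0.19) and CASAVA (1.8.2), with no role given, and the build was mm10 (GRCm38). The deposited values are a signal: the steps between them show whole counts that the authors divided by a size factor of each library. With a tolerance of 0.1 read, 100% of values were whole reads. For annotation release and strand setting nothing was given in the sources used here. GENCODE mouse release 21 supplied coordinates and exon lengths (98.0% of identifiers matched). Between replicates the chi-square of counts was 51.4 to 138 per degree of freedom, well above counting noise.

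Genotype labels gave the groups, and replicate numbers only name the livers. Differences were tested with limma 3.58.1 (R 4.3.3, mean trend) on log2(value + 1), which understates differences of low genes, for 13845 genes (mean 10 or more), all 9 libraries in 1 fit of 4 group means, Benjamini-Hochberg over all genes, called under 0.05. On recovered reads, edgeR 4.0.16 (quasi-likelihood test) and DESeq2 1.42.0 (Wald test) were alternatives. The tests were also run on simulated counts drawn for each gene separately, without the co-variation described above. No result given here rests on those runs. The name of the deposited table carries 2 codes, which may stand for sequencing projects. Libraries could not be assigned to them, so no batch term was fitted, and the part of a batch in the differences was not tested. Genes of the set with an unadjusted limma p or a DESeq2 adjusted p under 0.05 were named with log2 difference and SE, the others with levels. The genes and lists were chosen with earlier results of these data known. Other alternatives were the pseudocount, the filter, equal totals or TMM scaling, limma without trend, robust or with array weights, only the groups compared, and leaving out each library. Python 3.11.15, numpy 2.4.6, pandas 2.3.3 and matplotlib 3.10.9 were used.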

Additional observations from a re-analysis of the deposited data

How the results depend on the processing

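Across the pseudocounts, filters, scalings, limma settings, count tests and left-out libraries run, 0 differences reversed in sign among those of the 7 named genes (Hmgcs1, Nsdhl, Dhcr7, Srebf2, Lcat, Stard4 and Mylip; the other 23 were not followed), and 0 of the 30 genes were called, except by DESeq2 in HP1a_KO against WT, which called 1 (Hmgcs1, log2 difference 1.45). HP1a_KO replicates 1 and 2 set the medians of their group. Over all 30 genes the median in HP1a_KO against WT was 0.35, 0.093 without HP1a_KO replicate 1 and 0.54 at most. Over the synthesis genes it was 0.49, and 0.068 without replicate 1 and 0.95 without replicate 2. In HP1ag_KO against HP1a_KO the median of the 30 genes was -0.16, and 0.10 without HP1a_KO replicate 1 and -0.46 without replicate 2, and that of the synthesis genes was -0.33, and 0.15 and -0.86. DESeq2 run without each library in turn was added after seeing the data. In HP1a_KO against WT it called 0 of the 30 genes without WT replicate 2, beside 65 of all 13845 genes tested. Without HP1ag_KO replicate 2 it called 2 (Dhcr7 and Hmgcs1), beside 106 of 13845. In HP1ag_KO against HP1a_KO it called 1 of the 30 genes (Stard4) without WT replicate 1, beside 612 of 13845. It called 1 (Dhcr7) without HP1ag_KO replicate 2, beside 147, and 1 (Stard4) without HP1ag_KO replicate 3, beside 202. Runs without an HP1a_KO liver leave 1 liver in that group, so their calls are not listed here. The cause of these shifts was not tested. No paired analysis was possible because the labels give the groups no shared replicate numbers. Each group had 1 to 3 livers, and the spread of the synthesis genes within genotypes was wide. How far the number of livers or the depth limits the precision was not tested.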

Other observations

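Animal numbers in the titles are consecutive for 2 pairs of an HP1ag_KO and a WT liver. The numbers of the 2 HP1a_KO livers are consecutive too. The labels do not say what the numbers stand for, so whether such livers are siblings was not tested, and the pairs were looked at after seeing the data. HP1ag_KO replicate 1 minus WT replicate 3 had a median log2 difference of -0.29 over the 18 synthesis genes, with 0 of 18 higher. HP1ag_KO replicate 3 minus WT replicate 2 had a median of 0.15, with 13 of 18 higher. The median over all genes tested was -0.01 in both pairs.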
